A study of Mus musculus with 2 samples.

Results

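CMT93 is an established epithelial line grown from a mouse carcinoma of the large bowel, and the data described here are the transcriptome of these cells without a stimulus. Its single array is 1 of the 2 arrays of the study, chosen by its sample title, which names it the control. The other array, of cells given lipopolysaccharide (LPS) at 3 µg/mL for 24 h, is not compared here. Both samples carry the same line, established from rectum tissue of a 19-month-old C57BL/ICRF mouse, and both were grown in DMEM. The treatment text on the control sample is the same as on the LPS sample, so its unstimulated state rests on the title alone. Total RNA was taken with Trizol, copied from the poly(A) end with a T7 promoter primer and labelled with the dye Cy3. One culture on 1 array gives no replicate, so no test between groups was possible, no spread between cultures is known and the precision is limited by the array number. In RNA from a whole culture, fewer cells of a type and less RNA per cell cannot be told apart.

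The lining of the large bowel is a single sheet of epithelial cells that renews itself from crypt stem cells. WNT signals keep the stem cells dividing, and their daughters become absorptive colonocytes, mucus-secreting goblet cells, hormone-secreting enteroendocrine cells or chemosensory tuft cells. Neighbouring cells are sealed by tight junctions and held by adherens junctions and desmosomes, and receptors for bacterial products, cytokines and growth factors sit on the surface or inside the cell.

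A level is given here as the log2 processed signal of a gene's brightest probe minus the log2 of the 75th percentile of the array's 59305 non-control spots, which lay at 649 signal units. A level of 0 is thus the 75th percentile. A gene was counted as expressed where that probe carried the scanner software's well-above-background flag, as 55.8% of non-control spots did, against 5 of 308 negative control spots. No spot was saturated. Of 34648 gene names on the array 21317 were expressed, or 61.5%. Of the 19330 names that are gene symbols 13185 were expressed, or 68.2%, and 8230 were above the 75th percentile of signal, or 42.6%. These shares are the background for the counts of listed genes below, and the median level of an expressed symbol was 1.06. The repeat error on this array is the SD over spots of 257 probes that were printed 10 times and lay well above background, beside which the software gives its own error for each probe. In 4 groups of rising signal its median was 0.10, 0.06, 0.05 and 0.04 log2 units. It covers the slide only, and it was measured up to a level of 6.89. Probes differ in how strongly they bind, so levels of different genes are not ranked against each other.

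**Figure D1:**
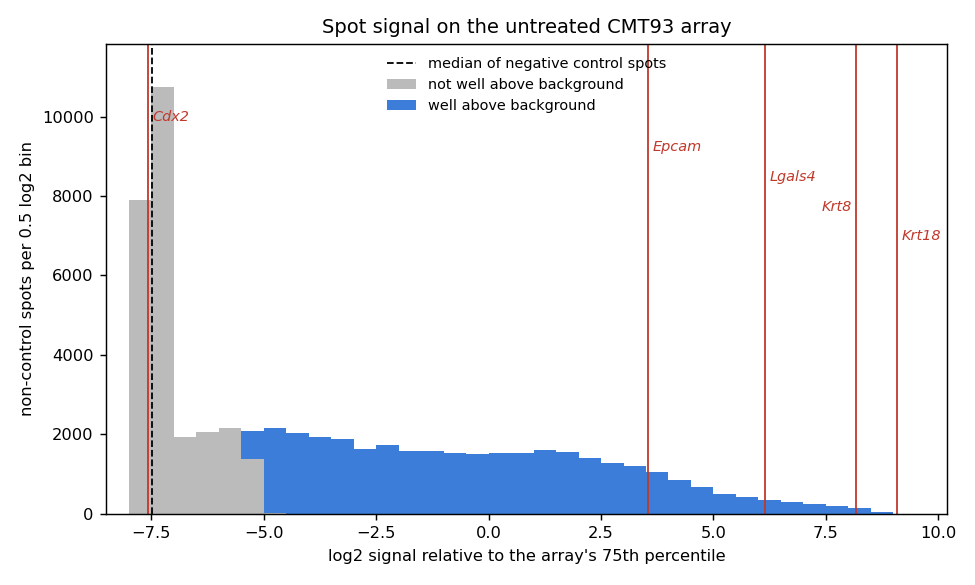
Number of non-control spots of the untreated CMT93 array (vertical axis) in bins of log2 signal relative to the 75th percentile (horizontal axis), with spots well above background in blue and others in grey. The red lines mark the brightest probe of each of 5 intestinal epithelial markers, of which Cdx2 at -7.58 lies with the grey spots near the median of the negative controls at -7.48.

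Of the 5 markers of an intestinal epithelial line, 4 were expressed and 1 was not. Krt18 and Krt8, which pair to form the keratin filaments of simple epithelia, lay at 9.09 and 8.17, with signals of 353848 ± 35385 and 187535 ± 18754 units (the software's error for 1 probe). The second Krt8 probe lay at 7.08. Lgals4, the bowel lectin galectin 4, was bright on all 3 of its probes, at 6.14, 6.08 and 5.70. A near-identical copy of it, Lgals6, exists in some mouse strains and cannot be told apart from it here. Epcam, the adhesion molecule of most epithelia, lay at 3.56. Cdx2, the homeobox factor that directs intestinal identity, was not well above background on its only probe. Its signal of 3.39 ± 3.40 units was no higher than the negative control median of 3.63. By these markers the label of an epithelial cell fitted the data, while the label of an intestinal cell had Lgals4 on its side and not Cdx2. The probes are shown because the marker check turns on them, each read 5′ to 3′ with its mm9 position. The capitals mark AATAAA, the letters of the usual polyadenylation signal, near which a poly(A)-primed label is strongest. They occur in 5602 of 55678 probes, and 64.5% of those probes were well above background against 54.1% of the others.
Krt18, chr15:101862341-101862400, plus strand: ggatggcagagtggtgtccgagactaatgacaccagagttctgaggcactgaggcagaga
Krt8, chr15:101827138-101827197, minus strand: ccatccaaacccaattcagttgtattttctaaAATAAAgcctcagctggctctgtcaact
Lgals4, chr7:29626661-29626720, plus strand: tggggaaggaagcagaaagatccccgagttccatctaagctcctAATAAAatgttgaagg
Epcam, chr17:88048972-88049800, plus strand: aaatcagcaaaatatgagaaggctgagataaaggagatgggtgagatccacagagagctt
Cdx2, chr5:148112547-148112606, minus strand: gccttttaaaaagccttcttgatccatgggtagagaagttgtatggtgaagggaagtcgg

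The 60 bases of the Epcam probe are placed over 829 bases of the genome. The Cdx2 probe holds no AATAAA, nor does that of Krt18, which was bright.

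Some probes can bind RNA of other genes, and their genes are named as such below. A probe was called shared where it had at least 1 of 4 properties, a definition made after the values were seen. These were a run of 20 bases also present, on either strand, in a probe on another chromosome, a tandem repeat of 14 or more bases with a unit of up to 3 bases, RefSeq mRNA accessions of several genes, or a position on a chromosome other than the gene's. Of 55678 probes 2720 were shared, or 4.89%, and 78.8% of them were well above background against 53.9% of the rest. Where 10 or more other probes held the same 20 bases, 165 of 169 probes were well above background. Without shared probes 68.0% of 18783 symbols were expressed and 41.9% were above the 75th percentile. Among all listed genes, 28 expressed genes had a shared probe as their brightest. In 6 of them a probe that was not shared kept the call, 15 had no probe that was not shared, and in 7 the probes that were not shared were not well above background. The last 7 were Trp63, Nanog, Amy2a5, Pigr, Il15ra, Tnfrsf9 and Epha5.

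Examples show what such probes look like, with a tandem repeat in capitals for Itgam, Pigr, Epha5 and Trp63 and 20 letters shared with probes on other chromosomes in capitals for Csf3r and Naip5.
Itgam, chr7:135261755-135261814, plus strand: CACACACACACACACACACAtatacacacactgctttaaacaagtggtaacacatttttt
Pigr, chr3:100021262-100021321, minus strand: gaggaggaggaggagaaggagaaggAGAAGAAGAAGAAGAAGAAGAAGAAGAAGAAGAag
Epha5, chr5:84487348-84487407, minus strand: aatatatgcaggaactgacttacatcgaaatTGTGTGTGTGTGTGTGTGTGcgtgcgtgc
Trp63, chr16:25871159-25871218, plus strand: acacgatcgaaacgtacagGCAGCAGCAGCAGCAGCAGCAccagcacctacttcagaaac
Csf3r, chr4:125721478-125721537, plus strand: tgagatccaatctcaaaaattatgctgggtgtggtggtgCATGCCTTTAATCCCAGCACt
Naip5, chr13:100981843-100981902, minus strand: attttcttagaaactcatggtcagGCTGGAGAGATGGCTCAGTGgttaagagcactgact

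The Itgam probe lay at 3.53, while the gene's other 2 probes lay at -3.75 and -4.16. The Pigr probe lay at 4.78 on chromosome 3, while the probe on chromosome 1, where the gene is, was not well above background. The part that other transcripts play in these signals was not tested.

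Of 20 core epithelial genes 19 were expressed and 16 lay above the 75th percentile, with a median level of 3.56 among those expressed. Besides the keratins and Epcam they included Cdh1 at 5.25, which encodes the adhesion protein E-cadherin, and Krt19 at 7.84 on a keratin of simple and ductal epithelia. The epithelial splicing regulators Esrp1 and Esrp2 lay at 1.63 and 3.35, and the transcription factor Elf3 lay at 1.59. Krt7, a keratin of ductal epithelia that normal colon largely lacks, lay at 7.04. Krt20, a keratin of mature surface cells of the bowel, lay at -1.88. Grhl2, an activator of epithelial junction genes, was the member that was not well above background.

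Of 21 intestinal transcription factors 15 were expressed and 9 lay above the 75th percentile. Hnf4a, a regulator of enterocyte and liver genes, lay at 3.86, and its paralogue Hnf4g was not well above background. Foxa1 and Foxa2, pioneer factors of the gut endoderm, lay at 4.51 and 4.15, and Klf5, a factor of proliferating crypt cells, lay at 3.98. Gata4, a factor of the proximal gut, lay at 0.37. Cdx1, the paralogue of Cdx2, was expressed at -4.14. Besides Cdx2 and Hnf4g, the genes Isx, Sox9 and Nr5a2 were not well above background. Neither Cdx gene thus lay above the 75th percentile, and the factors Hnf4a, Foxa1, Foxa2 and Klf5 did.

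Differentiated cells of the gut are known by transporters, digestive enzymes, mucus proteins and hormones. Across the lists of colonocytes, enterocytes, goblet, enteroendocrine, tuft and Paneth cells, 53 of 108 genes on the array were expressed. This is 49.1% against 68.2% of all symbols. Of the 108, 12 lay above the 75th percentile, a count to read against the 42.6% of all symbols. The median level was -2.49 among the expressed genes.

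Of 21 colonocyte genes 16 were expressed and 5 lay above the 75th percentile. The carbonic anhydrases, which make bicarbonate, lay at -2.76 for Car1, on 1 of 2 probes, and 1.80 for Car2. Car4 lay at 2.97 on 1 probe while its other probe was not well above background. Slc26a3, the chloride and bicarbonate exchanger of surface colonocytes, was not well above background, and Aqp8, a water channel of the same cells, lay at -4.31 on 1 of 2 probes. Guca2a, the peptide guanylin, lay at -3.83. Of 19 enterocyte genes of the small bowel 9 were expressed, among them Apob, the scaffold of lipoproteins, at 2.59 and the lactase gene Lct at -3.88. The sucrase gene Sis, the phosphatase gene Alpi and the apolipoprotein genes Apoa1 and Apoa4 were not well above background.

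Of 20 goblet cell genes 10 were expressed, none with a level above 0.71. Muc2, the gel-forming mucin of the colon, was not well above background, nor were Tff3, Atoh1, Fcgbp, Zg16 and Retnlb. Spdef, a factor for goblet cell maturation, lay at -1.49, Agr2, which folds mucins, at -3.85, and Clca1, a secreted protease of mucus, at -3.96. Of 22 enteroendocrine genes 8 were expressed and none lay above the 75th percentile. The granule proteins Chga and Chgb, the factors Neurog3 and Neurod1 and the hormones Gcg, Cck and Gip were not well above background, and the hormone gene Sct lay at -1.40. The looser flag counted 13 enteroendocrine genes.

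Of 16 tuft cell genes 7 were expressed. Ptgs1, the constitutive cyclooxygenase, lay at 5.06, while Dclk1 lay at -1.20 on the brightest of 4 flagged probes and at -5.02 on the dimmest, and the tuft cell master factor Pou2f3 at -4.93. Trpm5, Gfi1b and Il25 were not well above background. Ltc4s lay at -0.44, Sh2d6 at -2.57 and Alox5ap at -3.62, and Chat was expressed at -5.20 on a shared probe. Of 10 Paneth cell genes 3 were expressed, Itln1, a lectin for microbial sugars, at 2.47 (dimmest of 3 probes -1.18), the protease gene Mmp7 at 2.33 and Ang4 at -2.27. Lyz1, Reg3g, Reg3b and the alpha-defensin genes on the array were not well above background.

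Crypt stem cells are known by WNT target genes. Of 27 members 21 were expressed, or 77.8% against 68.2% of all symbols, and 15 lay above the 75th percentile, with a median of 2.36 among those expressed. Axin2, a negative feedback gene of the WNT pathway, lay at 2.19, and Rnf43, a ligase that removes WNT receptors, at 4.79. Znrf3, its paralogue, lay at -1.31, and Nkd1, another feedback gene, at 4.29. Lrig1, a brake on growth factor receptors in stem cells, lay at 3.29, and Prom1, a surface protein of stem and progenitor cells, at 6.70. Lgr5, the stem cell receptor that boosts WNT signals, lay at 2.45 on 1 probe and was not well above background on the other. Those probes lie in different parts of the gene, and both are shown because the call turns on which is read.
Lgr5 bright, chr10:114887403-114887462, minus strand: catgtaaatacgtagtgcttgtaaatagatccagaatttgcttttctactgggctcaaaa
Lgr5 dim, chr10:114900686-114900745, minus strand: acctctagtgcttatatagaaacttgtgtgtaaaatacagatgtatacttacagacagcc

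Ascl2, the WNT-driven master factor of crypt stem cells, was not well above background, nor were Olfm4, Smoc2, Sox9, Sp5 and Hopx. Ephb3, a crypt positioning receptor, lay at 5.71, but its only probe holds a tandem repeat.

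All 17 genes of the fetal and regenerating gut epithelium were expressed and 12 lay above the 75th percentile, with a median of 1.78. Ly6a, the surface antigen Sca-1 that marks repairing epithelium, lay at 8.12, although near-identical neighbours in the Ly6 family, among them Ly6c1, may bind its probe. Msln, the surface protein mesothelin, lay at 8.45. Anxa1, which restrains inflammation, lay at 7.45, Clu, a chaperone of revival stem cells, at 6.45 and the alarmin gene Il33 at 5.97. Spp1 lay at 4.06, Ccnd2 at 2.73 and Gja1 at -1.61. H19 was expressed on only 1 of its 7 probes.

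Hox genes keep a record of position along the body axis, and 32 of 39 were expressed, with 14 above the 75th percentile. Both shares can be read against the 68.2% and 42.6% of all symbols. By paralogue group, which runs from anterior to posterior, 12 of 15 genes of groups 1 to 5 were expressed, 11 of 12 of groups 6 to 9 and 9 of 12 of groups 10 to 13. Hoxa7 and Hoxb7 lay at 4.28 and 3.64. Hoxb13, a gene of the most posterior gut, lay at 3.55 on the probe shown here, which holds the AATAAA letters in capitals.
Hoxb13, chr11:96057854-96057913, plus strand: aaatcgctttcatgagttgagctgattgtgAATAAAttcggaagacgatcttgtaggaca

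Hoxd13 lay at -0.08, while Hoxa13 and Hoxc13 of the same group were not well above background. Anterior genes were present too, with Hoxa3 at 0.90 and -3.63 on its probes. Cluster A had 10 of 11 genes expressed, cluster B 9 of 10, cluster C 7 of 9 and cluster D 6 of 9.

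**Figure D2:**
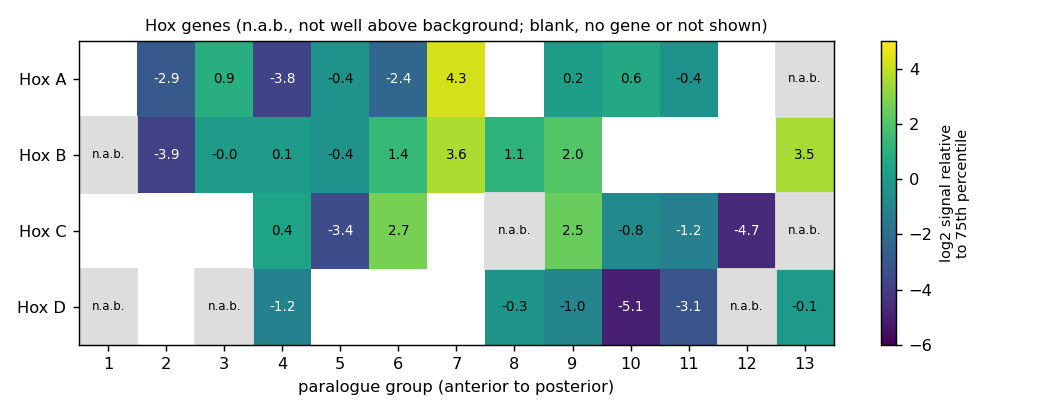
Level of each Hox gene (log2 signal relative to the 75th percentile, colour and number) by cluster (rows) and paralogue group (columns), where grey boxes are genes not well above background and blank boxes have no gene or one not shown. Levels of the expressed genes are printed, with Hoxa7, Hoxb7 and Hoxb13 at 4.28, 3.64 and 3.55, and colours do not rank genes, since probes differ.

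Genes of other organs and cell types gave a smaller share of calls than the array. Over 11 lists 56 of 136 genes were expressed, or 41.2% against 68.2% of all symbols, and 18 lay above the 75th percentile. Without shared probes 53 of 132 were expressed. Of 16 stomach genes 4 were expressed, Anxa10 at 0.01, Gkn3 at -3.51, Muc5ac at -4.44 and Pgc at -4.45 on 1 of 2 probes, and the stomach count was 7 with the looser flag. Of 12 liver genes 6 were expressed and none lay above the 75th percentile, with Alb, Ttr and Cyp2e1 not well above background and Afp at -4.81. Of 12 pancreas genes 7 were expressed, with Clps, the lipase cofactor, at 1.46 and -0.05 on its probes and the insulin genes Ins1 and Ins2 at -4.58 and -2.36. Of 8 lung genes 3 were expressed, Foxj1, the factor of ciliated cells, at 0.66, Sftpd at -4.34 and Scgb1a1 at -4.60. Of 10 kidney and urothelium genes the 3 expressed were Pax8 at 0.08, Aqp2 at -0.50 and Upk1a, which lay below the 75th percentile, and the looser flag counted 8. With the negative control percentile or the median filter in place of the flag, the counts were 2 for stomach, 4 for pancreas and 2 for liver.

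Markers of blood and vessel cells were mostly at background. Of 11 endothelial genes 3 were expressed, Pecam1 at -3.20, Esam at 0.72 and Kdr at 3.04 on 1 of 2 probes, while Cdh5, Tek, Vwf and Tie1 were not well above background. Of 15 lymphocyte genes 6 were expressed. Cd4 lay at 1.67 on 1 probe and -5.20 on the other and Cd3e at 0.82, while Cd3d, Cd3g, Cd8a and Ms4a1 were not well above background and the pan-leukocyte gene Ptprc lay at -3.62. Of 15 macrophage genes 6 were expressed and 4 lay above the 75th percentile, 1 of which, Itgam, was read on a shared probe. Csf1r, the receptor for the macrophage growth factor, lay at 1.28, with the dimmest of 3 probes at -3.89, and the lysosomal gene Cd68 lay at 0.71 and -3.24. Cd14, given below with the LPS receptor genes, was expressed too. Adgre1, Lyz2, Tyrobp, Laptm5, Mpeg1 and Spi1 were not well above background. Of 14 neuron and glia genes 7 were expressed, of which Snap25 at 3.14 rests on a shared probe. Mbp lay at 3.84, with the dimmest of 3 probes at -3.96, while Rbfox3, Syt1, Map2, Gfap and S100b were not well above background. Of 11 muscle genes 4 were expressed, Tnnt2 at 0.70, Tagln at -0.24, Cnn1 at -2.73 and Myh6 at -4.95. Of 13 pluripotency and germ cell genes 7 were expressed, with Tdgf1 at 0.26 on 1 of 3 probes and Pou5f1, Sox2, Zfp42 and Dppa5a not well above background. Only 3 of these 7 had every probe flagged. The looser flag counted 7 endothelial, 11 lymphocyte, 10 macrophage and 7 muscle genes.

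Mesenchymal genes were mixed. Of 21 members 13 were expressed and 4 lay above the 75th percentile. These 4 were Fn1, the matrix protein fibronectin, at 8.23, Sparc, a collagen-binding matrix protein, at 5.06 (dimmest of 3 probes -2.01), S100a4 at 4.93 and Vim, the intermediate filament of mesenchymal cells, at 4.62. The fibroblast collagens Col1a1 and Col1a2 lay at -2.62 and -3.42. Col3a1, Pdgfrb, Dcn, Lum, Thy1, Twist1, Fap and Postn were not well above background, and Pdgfra lay at -4.24. Fibronectin and vimentin RNA was thus measured in the same culture as E-cadherin and keratin RNA, with most fibroblast genes at background or below the 75th percentile. Of 21 squamous genes 15 were expressed. Krt6a, a keratin of stressed squamous cells, lay at 2.98, and Krt13 at 3.38 on 1 of 2 probes. The basal keratins Krt5 and Krt14 lay at -3.96 and -3.51. Trp63, the master factor of squamous epithelium, lay at 2.08 only on its repeat-bearing probe, with its other 3 probes not well above background.

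**Figure D3:**
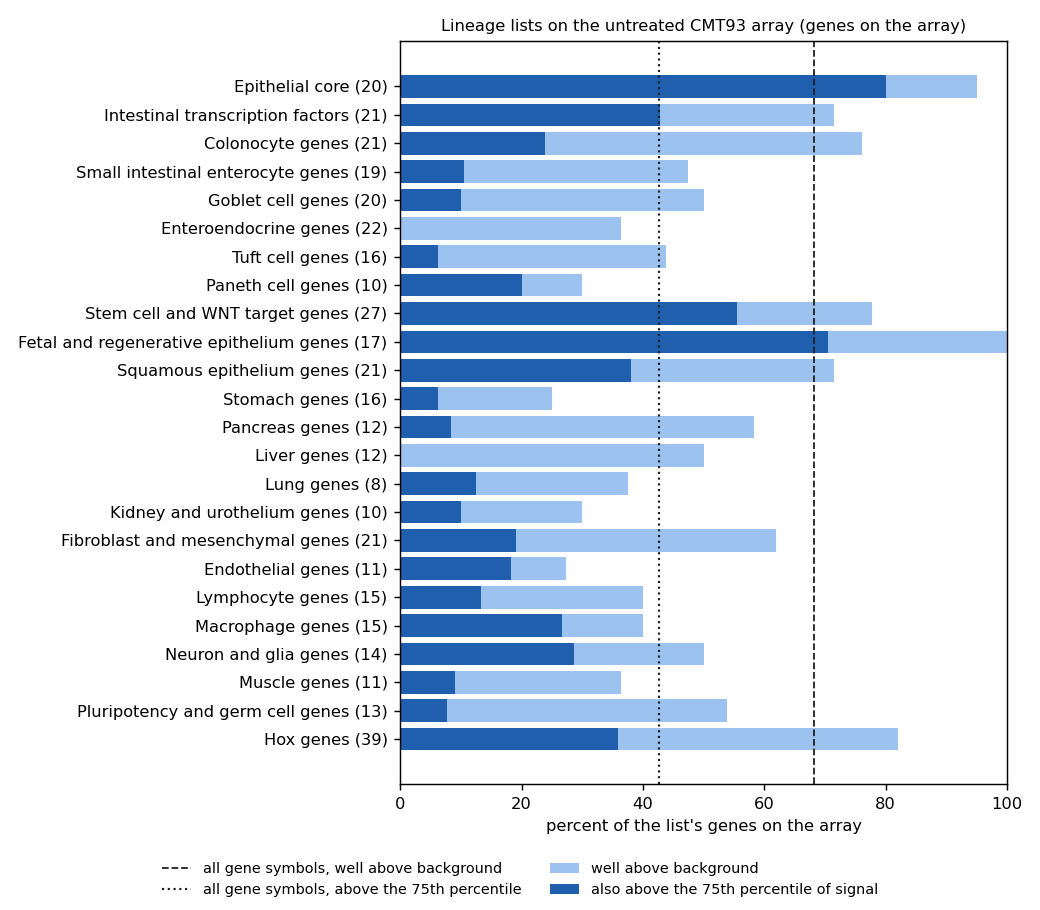
Percent of each lineage list's genes on the untreated CMT93 array (horizontal axis, gene number in brackets) that were well above background (light bars) and also above the 75th percentile of signal (dark bars), with the same shares of all symbols, 68.2% and 42.6%, as dashed and dotted lines. Core epithelial genes (19 of 20) and fetal and regenerative genes (17 of 17) lie to the right of the dashed line, and stomach genes (4 of 16) and endothelial genes (3 of 11) lie to its left.

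Barrier genes were expressed in 145 of 194 cases, or 74.7% against 68.2% of all symbols. Of the 194, 83 lay above the 75th percentile, a count to read against the 42.6% of all symbols. Over the lists of cell junctions 68 of 88 were expressed, with 41 above the 75th percentile. Without shared probes the counts were 141 of 191 for barrier genes and 67 of 87 for the junction lists.

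Claudins are the membrane proteins that set how tight and how ion-selective the seal between cells is. Of 23 on the array 12 were expressed and 5 lay above the 75th percentile. Cldn7, a sealing claudin of the whole bowel, lay at 5.58, while its second probe lay at -5.17, near the lowest level flagged. Cldn4, another sealing claudin, lay at 4.29 and 4.17 on its pair of probes. Cldn12, whose level was chosen after it was seen, lay at 3.62. Cldn6, a claudin of embryonic epithelia, lay at 3.54. Cldn2, which forms a pore for cations and is typical of crypts, lay at 1.30 and Cldn3, a sealing claudin, at -0.74. Cldn1, Cldn5 and Cldn8, a sealing claudin of the distal colon, were not well above background.

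Of 25 other tight junction genes 24 were expressed and 17 lay above the 75th percentile, with a median of 2.63. Ocln, which encodes occludin, lay at 1.06, and the scaffold genes Tjp1 and Tjp3 at 3.52 and 2.58. F11r, an adhesion molecule of the junction, lay at 4.83 and the junction linker Cgn at 4.27. Marveld2, the protein of tricellular contacts, lay at 1.12 and Lsr, which recruits it, at 6.46. All 11 expressed members with several probes had every probe above background.

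All 15 adherens junction genes were expressed and 7 lay above the 75th percentile. The catenins that link E-cadherin to actin lay at 5.08 for Ctnnb1, 6.96 for Ctnna1 and 4.96 for Ctnnd1, whose dimmest of 3 probes lay at -5.19. Jup, the catenin of desmosomes, lay at -2.13. Nectin2 lay at 3.92, Nectin1 at -3.08, Nectin3 at -1.62 on 2 of 3 probes and Nectin4 at -2.59. Cdh17, the liver-intestine cadherin, lay at -0.92, Cdh3 at -0.40 and the neural cadherin gene Cdh2 at -3.12.

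Of 15 desmosome genes 10 were expressed. Dsp, the plaque protein desmoplakin, lay at 3.83, Pkp2 at 2.92 and Perp at 4.75. Dsg2, the desmosomal cadherin of simple epithelia, lay at 0.16 on 2 of 3 probes. Its partner Dsc2 was not well above background, nor were the skin forms Dsc1, Dsc3, Dsg1a and Dsg4. Other genes of stratified epithelia were expressed, with Evpl at 3.61, Pkp1 at 3.22, Ppl at 2.51 and Dsg3 at -3.92 on 2 of 3 probes. Pkp3 at 3.51 rests on a repeat-bearing probe. Of 11 gap junction genes 8 were expressed, with the connexin genes Gjb2 at 1.29, Gjc1 at 0.23 and Gjb1 at -0.79. All 15 genes of hemidesmosomes and basement membrane were expressed and 13 lay above the 75th percentile. The laminin chains of epithelial basement membrane lay at 6.58 for Lama5, 1.66 for Lama3 and 3.18 for Lamb3. Itgb4, which forms the hemidesmosome receptor with Itga6, lay at 2.42, and the linker Plec lay at 5.04. The tetraspanin gene Cd151 lay at 5.28 and 2.48 on its probes. Itga6 lay at 1.83 on a shared probe, and Col17a1 lay at -4.45.

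The mucus layer is built from mucins. Of 10 mucins 6 were expressed, and none lay above the 75th percentile. The membrane mucins Muc1, Muc4 and Muc13 lay at -0.52, -0.63 and -3.76, and Muc20 at -2.45 on 1 of 2 probes. The gel-forming mucins Muc5b and Muc5ac lay at -4.10 and -4.44. Muc2, Muc3, Muc6 and Muc15 were not well above background. Enzymes that put sugars on mucins were expressed in 16 of 20 cases with 11 above the 75th percentile. Of these, C1galt1c1 and St6galnac1 were read on shared probes. Without shared probes 15 of 19 were expressed and 9 lay above the 75th percentile. C1galt1, which builds the core of most O-glycans, lay at 1.86, and Gcnt3 and B3gnt3, which extend it, lay at 1.04 and 1.26. B3gnt6, which builds the colonic core 3 glycan, lay at -4.62. The brush border, the actin-filled microvilli of the apical face, had 10 of 14 genes expressed. Ezr, which ties membrane to actin, lay at 5.35, and the microvillar cadherin genes Cdhr2 and Cdhr5 at 3.59 and -3.52. The bundling proteins Vil1 and Pls1 lay at 0.14 and 0.37, and the motor gene Myo1a at -2.05.

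Of 23 mucosal defence genes 13 were expressed and 5 lay above the 75th percentile. Wfdc2, a secreted protease inhibitor of epithelia, lay at 6.16, and Cyba, a subunit of the superoxide-making oxidases, at 6.40. The secreted inhibitor Slpi lay at -1.24, Lcn2, which withholds iron from bacteria, at -2.63 and Camp, a cathelicidin peptide, at -4.32. Defb1, Dmbt1, Ltf, Reg3b and Reg3g were not well above background. Pigr, the carrier of secretory IgA, was not well above background once its repeat-bearing probe was left out. Of 24 ion and water transport genes 17 were expressed and 6 lay above the 75th percentile. Ano1, a calcium-gated chloride channel, lay at 6.02. The sodium channel gene Scnn1a lay at -0.58, with its partners Scnn1b and Scnn1g not well above background. Cftr, the chloride channel of crypts, lay at -4.61 on 1 of 2 probes, and the sodium and proton exchanger Slc9a3 at -1.98, also on 1 of 2.

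**Figure D4:**
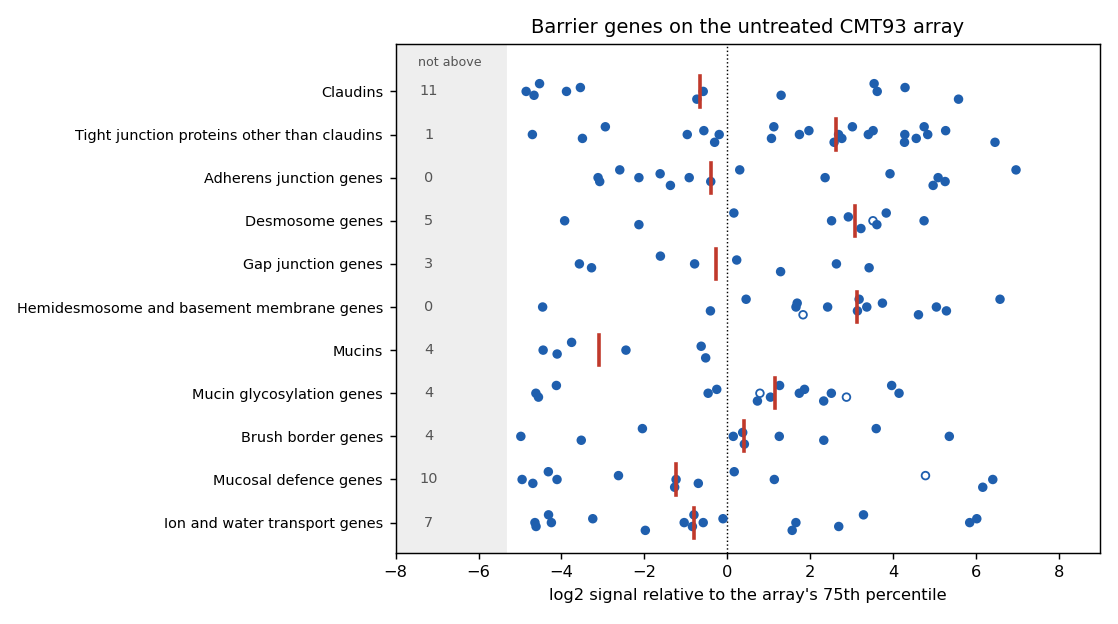
Level of each expressed barrier gene (points, log2 signal relative to the 75th percentile) by list, with the list median in red, the number of genes not well above background in the grey strip, and hollow points for genes read on a shared probe. Tight junction, desmosome and hemidesmosome medians lie at 2.63, 3.07 and 3.14, and that of the mucins at -3.10.

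Receptor and sensor genes were expressed in 269 of 426 cases, or 63.1% against 68.2% of all symbols, and 126 lay above the 75th percentile. Without shared probes 257 of 417 were expressed.

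LPS is sensed by a surface complex of Tlr4 and Ly96, to which Lbp and Cd14 deliver it. All 4 genes were expressed without a stimulus. Tlr4 lay at -0.30, Ly96, the co-receptor MD-2, at 1.12, Cd14 at 2.17 and Lbp at 1.35. The adaptor genes Myd88, Tirap and Ticam1 lay at 1.14, 0.58 and 0.25, and Ticam2 was not well above background. The array has a pair of Tlr4 probes, and only 1 was above background, at 528 units against 3.17 units for the other. They lie 86607 bases apart on mm9, while the gene spans 19031 bases in RefSeq (GRCm38.p6), so both cannot lie within that gene model. The probes are shown because the call rests on the first.
Tlr4 bright, chr4:66503470-66503529, plus strand: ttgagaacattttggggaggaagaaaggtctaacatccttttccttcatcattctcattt
Tlr4 dim, chr4:66590077-66590136, plus strand: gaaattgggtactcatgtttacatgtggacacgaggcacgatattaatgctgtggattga

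Of all 21 genes of this list 13 were expressed and 8 lay above the 75th percentile, with a median of 0.25. Tlr3, the sensor of double-stranded RNA, lay at -2.87. Tlr2 and Tlr1, which sense bacterial lipopeptides, and Tlr5, which senses flagellin, were not well above background, and Tlr6 lay at -1.09. Tlr9, a sensor of bacterial DNA, lay at 1.17 on its only probe.

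Of 28 cytosolic sensors and inflammasome genes 18 were expressed. Nod1, a sensor of peptidoglycan, lay at -3.38, and Nod2, Nlrp3, Nlrp6, Aim2 and Casp1 were not well above background. Sting1, the adaptor for cytosolic DNA, lay at 3.62 and Gsdmd, the pore protein of pyroptosis, at 3.79. Cgas, the DNA sensor upstream of Sting1, lay at -3.30, with the dimmest of 3 probes at -5.09. Casp4, the mouse caspase-11 gene that binds intracellular LPS, lay at -0.72 and -1.06 on its probes. Nlrp1a lay at 5.19 on 1 of 3 probes, with the other 2 not well above background, and its near-identical neighbour Nlrp1b was not well above background. Naip5, a flagellin sensor, lay at 5.86 on a shared probe, and copies of Naip genes are hard to tell apart.

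Of 45 interleukin and colony-stimulating factor receptors 31 were expressed and 10 lay above the 75th percentile. Il10rb, shared by the receptors for interleukin 10 and 22, lay at 1.19, while Il22ra1 and Il10ra lay at -3.98 and -5.16. Il17rc lay at 3.98 and its partner Il17ra, which completes the receptor for interleukin 17, at -1.53. Receptors of the interleukin 6 family were expressed too, with Il6ra at 2.72, Lifr at 2.07, Osmr at 1.50 and the common chain Il6st at -0.07. Il1r1, Il2rg and Il7r were not well above background. Csf3r at 6.59 and Il15ra at 3.47 rest on shared probes. Of 5 interferon receptor chains 4 were expressed, with Ifnar1 at 2.95, Ifnar2 at 2.20, Ifngr1 at 2.48 and Ifngr2 at 3.06. Ifnlr1, the chain for type III interferon, was not well above background.

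Of 28 TNF receptor family genes 19 were expressed and 8 lay above the 75th percentile. Tnfrsf1a, the main TNF receptor of epithelium, lay at 3.15 and 1.55 on its probes and Tnfrsf1b at -3.47. Tnfrsf12a, the receptor for TWEAK, lay at 6.13, Ltbr, the lymphotoxin receptor, at 3.75 and Tnfrsf21 at 1.66. The death receptor gene Tnfrsf10b lay at 0.25, and Fas and Cd40 were not well above background. Of 23 chemokine receptors 7 were expressed, and Ackr3, a scavenger of the chemokine CXCL12, at 2.04 was the only one above the 75th percentile. Cxcr4, Cxcr1, Cxcr2, Cxcr5 and Cx3cr1 were not well above background, and Cxcr3 and Cxcr6 lay at -4.13 and -3.90. The looser flag counted 13 chemokine receptors.

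Of 52 receptor tyrosine kinases 35 were expressed and 19 lay above the 75th percentile, or 32 of those with other probes once shared probes were left out. Egfr, the receptor for epidermal growth factor, lay at 4.90, with its other 2 probes both at 1.70. Its partner Erbb2 lay at 1.17, and Erbb3 and Erbb4 were not well above background. Met, the receptor for hepatocyte growth factor, lay at -1.37 and Mst1r was not well above background. Igf1r lay at 3.47 and the insulin receptor gene Insr at -0.41. Epha2 and Axl lay at 4.40 and 4.61. Epha5 rests on a repeat-bearing probe.

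Of 15 receptors for TGF-beta and BMP 11 were expressed, 7 of them with every probe flagged. Tgfbr1 and Tgfbr2, the type I and type II chains, lay at 3.68 on 3 of 4 probes and at 4.08, with the second Tgfbr2 probe at -1.20. The BMP chains Bmpr1a and Bmpr2 lay at 1.96 and -0.23, and Tgfbr3 and Bmpr1b were not well above background. Of 17 WNT receptor genes 13 were expressed. The co-receptor Lrp6 lay at 2.31, and the frizzled genes lay at 2.38 for Fzd2, 0.95 for Fzd6, -0.64 for Fzd7, -1.06 for Fzd3, -2.01 for Fzd4 and -2.43 for Fzd5. Of 9 Notch genes 8 were expressed. Notch2 lay at 2.77 and Notch1 at -2.88, with the ligand Jag1 at 0.58 and Dll1 not well above background.

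Of 49 nuclear receptors, with the sensor Ahr counted among them, 37 were expressed and 24 lay above the 75th percentile, with a median of 1.04. Ahr, which binds aryl hydrocarbons and microbial indoles, lay at 4.08. Vdr, the vitamin D receptor, lay at 0.81. The lipid sensors Ppard, Pparg and Ppara lay at 1.94, 1.15 and -0.74. The bile acid receptor Nr1h4 lay at -2.66, and Nr1i2, the xenobiotic receptor, was not well above background. Nr3c1, the glucocorticoid receptor, lay at 3.26 and -1.92 on its probes, while Pgr was not well above background.

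G protein-coupled receptors sense small molecules and peptides at the surface. Of 9 prostanoid receptors 1 was expressed, Ptger4, at -5.18, which lies near the lowest level flagged above background on the array, -5.35. Of 32 peptide and neurotransmitter receptors 13 were expressed and 1, the somatostatin receptor gene Sstr5 at 2.87, lay above the 75th percentile. Vipr1 lay at -3.37 on 1 of 2 probes. The prostanoid count was 4 with the looser flag and 0 with the negative control percentile or the median filter. The peptide receptor count was 21 with the looser flag and 7 where every probe had to be flagged. Of 33 receptors for metabolites, lipids, proteases and nucleotides 18 were expressed and 4 lay above the 75th percentile. The thrombin receptor gene F2r lay at 3.88. Ffar2, a receptor for short-chain fatty acids, was not well above background and its paralogue Ffar3 lay at -2.57. Ffar4 lay at -1.84, the niacin and butyrate receptor Hcar2 at -1.69 and the bile acid receptor Gpbar1 at -2.02.

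Of 16 receptors for microbes and toxins 12 were expressed and 10 lay above the 75th percentile. Besides Lsr they included Cxadr, the coxsackievirus and adenovirus receptor, at 4.56 and -0.90 on its probes, and Hbegf, which binds diphtheria toxin in other species, at 1.99. Cldn4 and Cldn3, targets of a clostridial enterotoxin, are given above. Gucy2c, the receptor for guanylin and heat-stable enterotoxin, lay at -4.51. Of 26 integrins 18 were expressed. The laminin-binding chain Itga3 lay at 3.36 with its partner Itgb1 at 3.74. The collagen-binding chains Itga1 and Itga2 lay at -3.36 and -3.86, and Itga4 was not well above background. Of 19 genes of MHC and co-stimulation 12 were expressed. The class I genes H2-K1 and H2-D1, which share much sequence with their relatives, lay at 4.18 and 2.86 with the light chain B2m at 4.26. The peptide transporter gene Tap2 and its adaptor Tapbp lay at 1.94 and 3.62, and Tap1 was not well above background. The class II genes H2-Aa, H2-Ab1 and H2-Eb1 and the chain Cd74 were not well above background.

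**Figure D5:**
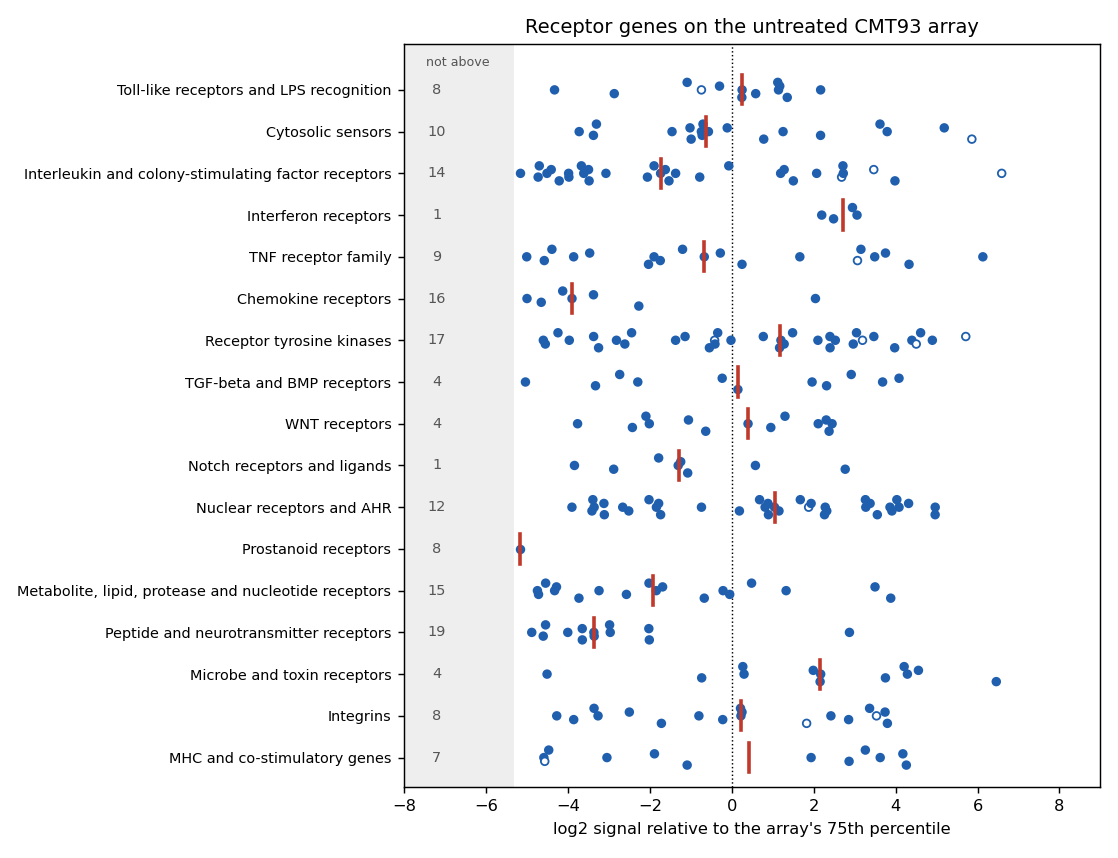
Level of each expressed receptor or sensor gene (points, log2 signal relative to the 75th percentile) by list, with the list median in red, the number of genes not well above background in the grey strip, and hollow points for genes read on a shared probe. Of 5 interferon receptor chains 4 lie between 2.20 and 3.06, whereas 16 chemokine and 8 prostanoid receptors are not well above background.

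Reference genes place these counts. All 8 proliferation genes lay above the 75th percentile, with Mki67 at 4.07, Pcna at 5.86, Top2a at 3.24 and Mcm2 at 3.17, and all 13 housekeeping genes did too. All 16 cancer genes were expressed. Ctnnb1 lay at 5.08, Myc at 1.60, Cdkn2a, a tumour suppressor often lost in cell lines, at 4.89, Trp53 at -1.86 and Apc at -2.73 on 1 of 2 probes. The Y-linked genes Eif2s3y, Ddx3y and Uty lay at 2.43, 0.81 and -3.21. The other Y-linked genes of the list, Kdm5d, Zfy1 and Sry, were not well above background. Of all 11 symbols placed on the Y chromosome 6 were expressed, or 54.5% against 68.2% of all symbols. Xist was not well above background on either of its probes. Y-linked genes can have close relatives on the X chromosome, as Ddx3y does. With the looser flag 5 genes of this sex-linked list were above background instead of 3. At the other end, 123 of 1098 olfactory receptor genes were flagged as expressed, or 11.2%, with a median of -4.18. These genes belong to the nose.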

How the data were processed

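RNA of CMT93 cells was hybridised to a one-colour Agilent mouse array, and the control array alone was used. The deposited file gives the intensity of each spot as written by Agilent Feature Extraction 10.10.1.1 after background subtraction and detrending, with probe positions on mm9, per the file headers. The well-above-background and outlier flags, used as other values, are those of the deposited file, which asks for signal above background by a test at p of 0.01 and by a multiple of 13 background SD, per the file headers.

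Control spots and 120 outlier spots were left out. Spots of a probe were averaged, and the brightest probe decided a gene. The level is the log2 of that intensity minus the log2 of the 75th percentile. Symbols came from the file. For list members they were matched through RefSeq accessions (GRCm38.p6 table), which gave 1 symbol for 27543 probes (49.5%). Exon positions of probes were not analysed here. With 1 array no test was run. The counting script was tested on simulated data. Tools were Python 3.11.15 with numpy 2.4.6, pandas 2.3.3 and matplotlib 3.10.9, and R 4.3.3 with limma 3.58.1 for normexp with an offset of 50.

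The members, the 56 gene lists and the rule for named genes were chosen with earlier results of these data known. Levels are given for the 5 markers, the first 8 members of a list, and expressed members of lists of up to 16 genes. Krt7, Esrp2, Foxa1, Foxa2, Klf5, Ephb3, Prom1, Nkd1, Msln, Vim, Fn1, S100a4, Sparc, Hoxb7, Hoxb13, Hoxd13, Cldn12, Cyba, Ano1, Tlr6, Tlr9, Myd88, Tirap, Ticam1, Naip5, Casp4, Gsdmd, Sting1, Cgas, Il6ra, Il6st, Osmr, Lifr, Il15ra, Csf3r, Ackr3, Epha2, Axl, Lrp6, Nr3c1 and F2r were named with levels after their values were seen. Alternatives were a looser flag, the 99th percentile of negative controls, every or any probe, no spot left out, a median filter, updated symbols, other background corrections and scalings, and, added after seeing the data, leaving out shared probes. Some genes of the lists are counted but not reported here by name.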

Additional observations from a re-analysis of the deposited data

How the results depend on the processing

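No paired analysis was possible because each group has 1 array and the control array alone was used, and for the same reason no array could be left out. The counts of expressed genes stayed within 1.5 times under each of the alternatives listed for them and without shared probes. They ranged from 17780 to 26285 for all names, from 205 to 301 for lineage, from 129 to 162 for barrier and from 220 to 329 for receptor genes, and 4 of 5 markers were expressed each time. Among the 56 lists the looser flag raised 11 counts by more than 1.5 times. The negative control percentile and the median filter each lowered 4, and asking for every probe lowered 3. Of the 655 expressed genes among all 1017 listed, asking for every probe removed the call of 94, and leaving out shared probes that of 22. Marker levels moved with the scaling by construction: with the median of spots in place of the 75th percentile Krt8 moved from 8.17 to 12.53, and with the 75th percentile of detected spots to 6.06. With normexp Krt8 was at 8.04, Krt18 at 8.91, Epcam at 3.35 and Lgals4 at 6.04, and Cdx2 moved from -7.58 to -3.36. Normexp here adds an offset of 50 units to every spot, which raises levels near background by construction. The share of the Cdx2 move due to that offset was not tested. The median SD over repeated spots was 0.05 and became 0.11 with normexp, whose cause was not tested. Signal over background limits the calls: the lowest level flagged was -5.35 and the highest not flagged was -4.95. Genes between these values can fall on either side.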

Other observations

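Gene families taken by the start of their name, chosen after the values were seen, give further counts of the untreated transcriptome. Of 95 cytosolic ribosomal protein genes 91 were expressed with a median level of 7.65, and of 40 proteasome subunit genes 36 were expressed with a median of 4.79. All 10 genes of the Mcm series, named for mini-chromosome maintenance, were expressed with a median of 3.30. Of 360 zinc finger genes of the Zfp series 319 were expressed, or 88.6%. Of 14 S100a genes, small calcium-binding proteins, 13 were expressed, and S100a6 lay at 9.31. Of 52 keratin genes 28 were expressed, or 53.8%, and 14 lay above the 75th percentile. These counts can be read against the 68.2% of all symbols. Smaller shares came from beta-defensin genes, from families of excitable, sensory or skin tissue, and from cytochrome P450 and orphan G protein-coupled receptor genes. Of 98 cytochrome P450 genes 43 were expressed, or 43.9%, and of 91 orphan receptor genes 39, or 42.9%. Of 98 potassium channel genes 38 were expressed, or 38.8%, and of 19 GABA receptor genes 7, or 36.8%. Vomeronasal receptor genes were expressed in 36 of 261 cases, or 13.8%, and beta-defensin genes in 9 of 43, or 20.9%. Hair keratin-associated genes were expressed in 21 of 52 cases, or 40.4%. Names of lincRNA intervals, long transcripts without a coding gene, were expressed in 3030 of 4610 cases, or 65.7% against 61.5% of all names.

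Of the 20 gene symbols of highest signal, which lay between 8.66 and 9.31, 9 were read on a shared probe. Among them were Slc10a1, the bile acid carrier of liver, at 8.94 and the transcription factor gene Elk1 at 8.81. The other probe of Slc10a1 was not well above background, and that of Elk1 lay at -2.34. Both bright probes list RefSeq mRNA accessions of several genes, and the capitals mark 20 letters found in probes on other chromosomes.
Slc10a1, chr12:82056539-82056598, minus strand: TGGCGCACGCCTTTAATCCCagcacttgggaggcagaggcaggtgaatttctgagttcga
Elk1, chrX:20510521-20510580, minus strand: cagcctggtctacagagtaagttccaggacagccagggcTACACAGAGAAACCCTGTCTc

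The other symbols of that group that were not on shared probes include Krt18, Tpt1, Fau, Actb, Rps10 and Ly6c1. The 20 describe signal on this array and not the order of transcripts.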
